A study of Mus musculus with 6 samples.

Results

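Glucose uptake, glycolysis, lactate handling and glycogen metabolism were followed through 35 genes, chosen by name from the deposited table of 28812 genes. The 35 names matched 36 rows, because 2 adjacent rows carry the name Aldoa, and all 36 were among the 17290 genes with enough counts to be tested. The libraries are poly(A) RNA of cultured wild-type (wt) mouse chondrocytes, the cells of cartilage, which the labels call OA (osteoarthritic). Every culture received IL-1β, an inflammatory cytokine: 3 libraries come from cells given IL-1β and vehicle, and 3 from cells given IL-1β and mitochondria, which came from osteocytes according to the title of the series. Cells without the cytokine are not part of the comparison, and their levels are not known here. The labels used here give no age, dose or time. They do not say whether the 3 replicates were separate animals or cultures, so p-values measure only the spread between these libraries, which may be technical.

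Glycolysis splits glucose into pyruvate in the cytosol and yields ATP without oxygen, and lactate dehydrogenase then turns pyruvate into lactate while restoring the NAD+ that the pathway needs. Glucose enters through facilitative transporters of the Slc2a (GLUT) family, and lactate leaves through proton-coupled monocarboxylate transporters of the Slc16a (MCT) family. Glycogen is the branched store of glucose, built and broken down through glucose phosphates. Cartilage has no blood vessels, and its chondrocytes are known for a strong reliance on glycolysis and for depositing some glycogen.

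Levels are given as CPM, the usual depth-scaled form of the deposited counts, after TMM scaling (a correction for library composition), when libraries are compared for 1 gene. Levels are given as the authors' FPKM, which is scaled per transcript length, when genes are compared with each other. A change is the log2 fold change of mitochondria over vehicle, with its standard error (SE). A gene is said to have risen or fallen where edgeR's quasi-likelihood test passed 0.05 after Benjamini-Hochberg adjustment over all 17290 genes. All adjusted p-values below are from that test unless another is named.

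Of the 36 rows, 17 rose in the cells given mitochondria, none fell and 19 did not pass the test. Among all tested genes 6.36% rose and 8.46% fell. By edgeR at an unadjusted p below 0.05, 20 members had higher and 1 had lower estimates, beside 14.9% and 16.6% of all tested genes at that threshold. DESeq2 called 20 members higher and 1 (Pfkfb2) lower, where it called 9.76% of all genes higher and 12.6% lower. Limma on FPKM called no member lower. With 1 or 0.1 added to FPKM before the log2, it called 1735 and 1609 of 17290 genes lower. The median log2 change of the members was 0.31, against 0.00 for all tested genes, and 28 of 36 estimates were above 0, against 50.3% of all genes. The 17 members that rose cover uptake (1 of 3), upper glycolysis from hexokinase to triose phosphate isomerase (6 of 10), the regulators of phosphofructokinase (1 of 5), lower glycolysis to pyruvate (4 of 8), lactate (2 of 4) and glycogen (3 of 6). All 17 had every mitochondria library above every vehicle library, as had 3 others (Hk2, Aldoa and Gys1), or 20 of 36 rows in all. Pfkfb2 and Slc16a1 had every mitochondria library below. Over all tested genes the groups were apart in the same way in 19.8% (above) and 20.9% (below). In bulk RNA, fewer cells of a type and less RNA per cell cannot be told apart.

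**Figure D1:**
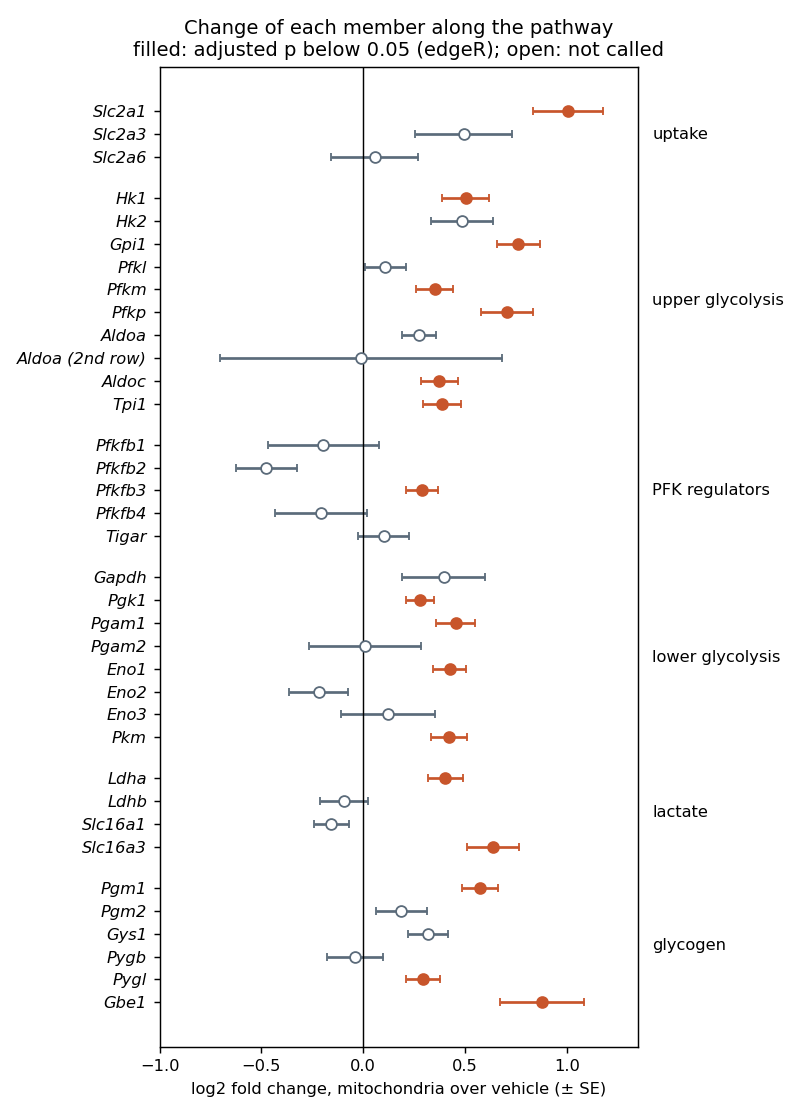
Log2 fold change of mitochondria over vehicle (x axis, point ± SE) for each of the 36 member rows, grouped by step from glucose uptake to glycogen; filled points passed the edgeR test at an adjusted p below 0.05. The 17 filled points all lie to the right of 0, from 0.28 for Pgk1 to 1.01 for Slc2a1.

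The increases were modest in size. Of the 17 members that rose, 12 changed by less than 1.5-fold and 5 by 1.5-fold or more: Slc2a1, Gpi1, Pfkp, Slc16a3 and Gbe1. In vehicle libraries the most abundant member per transcript length was Ldha at 1639 ± 25.8 FPKM (SD, n = 3), followed by Pkm at 1268 ± 32.2 FPKM and Pgk1 at 1113 ± 30.4 FPKM. Tpi1 and Pgam1 came next, at 745 ± 16.7 FPKM and 733 ± 42.4 FPKM, a pair that overlapped within their spread. Pfkfb1 was the lowest at 0.42 ± 0.06 FPKM. All members together held 2.82% ± 0.089 of the summed FPKM in vehicle and 3.45% ± 0.26 in mitochondria libraries (SD, n = 3 each), with no overlap between the groups.

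The promoters of the 3 members that rose by the largest log2 change are shown, because Slc2a1 and glycolytic genes are textbook targets of factors that read short motifs. Motifs farther from the start site are not covered by these windows. Each is RefSeq sequence on build GRCm38.p6, printed 5′ to 3′ on the gene's strand and ending just before the transcript start. The windows are chr4:119108495-119108710 (plus strand) for Slc2a1, chr16:70313699-70313948 (plus) for Gbe1 and chr7:34230337-34230586 (minus) for Gpi1. Capitals mark the motifs searched on both strands: ACGTG or GCGTG (the hypoxia response core), CACGTG (the E-box, which contains ACGTG), TGACNNNGC (the antioxidant response core) and GGGCGG (the GC box).
Slc2a1: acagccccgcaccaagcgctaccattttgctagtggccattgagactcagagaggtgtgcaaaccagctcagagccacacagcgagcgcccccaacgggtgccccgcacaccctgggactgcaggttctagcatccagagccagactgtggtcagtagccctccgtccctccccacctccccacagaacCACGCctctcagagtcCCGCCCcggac
Gbe1: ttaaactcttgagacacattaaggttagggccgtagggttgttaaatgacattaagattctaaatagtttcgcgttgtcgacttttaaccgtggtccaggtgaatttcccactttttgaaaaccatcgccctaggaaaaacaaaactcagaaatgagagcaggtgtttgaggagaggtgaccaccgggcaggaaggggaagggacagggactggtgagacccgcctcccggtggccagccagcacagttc
Gpi1: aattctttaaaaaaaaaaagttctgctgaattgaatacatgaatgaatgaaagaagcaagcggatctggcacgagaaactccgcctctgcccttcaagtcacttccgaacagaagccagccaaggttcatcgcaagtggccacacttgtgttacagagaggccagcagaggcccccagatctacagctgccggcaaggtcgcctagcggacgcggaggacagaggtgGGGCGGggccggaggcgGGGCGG
Slc2a1 holds 1 hypoxia core and 1 GC box in the stretch shown, Gpi1 holds 2 GC boxes, and Gbe1 holds none of the motifs.

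Over the table's 300-base windows, which reach past the start site, 34 of the 35 genes had an entry (all but Slc2a3). Each member was represented by the window nearest its deposited start, while the background holds every window of every gene, expressed here or not. The sets were not matched for GC content or expression. The hypoxia core was present in 24 of 34, against 43.8% of all 32851 windows in the table, and the GC box in 24 of 34, against 35.7%. The E-box was present in 4 of 34, against 7.2%, and the antioxidant core in 2 of 34, against 12.4%. The hypoxia core was as frequent among the genes that rose (12 of 17) as among those that did not pass (12 of 17). GC boxes were present in 14 of 17 that rose and in 10 of 17 that did not pass. Ldha had the most hypoxia cores, 7 in its window, and Hk1, Gpi1, Tpi1, Pkm and Gbe1 rose with none in theirs. A match is a description of letters and not evidence of binding.

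Glucose uptake was represented by Slc2a1 (GLUT1), the basal glucose transporter of most cells, Slc2a3 (GLUT3), a high-affinity transporter, and Slc2a6 (GLUT6), a transporter of intracellular membranes. Slc2a1 (ENSMUSG00000028645, chr4:119108711-119137983) stood at 952, 622 and 624 CPM in vehicle replicates 1 to 3 and at 1672, 1393 and 1346 CPM in mitochondria replicates 1 to 3. The lowest mitochondria library was well above the highest vehicle library, and vehicle replicate 1 was the highest of its group. The mean went from 733 ± 190 to 1470 ± 176 CPM (SD, n = 3 each), a log2 change of 1.01 ± 0.17 (adjusted p = 0.0098). Slc2a3 stood at 40.2, 24.5 and 19.1 CPM in vehicle and at 40.5, 36.8 and 40.6 CPM in mitochondria libraries. Its vehicle replicate 1 was level with the mitochondria group, and its change of 0.49 ± 0.24 did not pass (adjusted p = 0.20). Slc2a6 was near 7 CPM in both groups (7.04 ± 1.08 and 7.31 ± 1.63 CPM, adjusted p = 0.89).

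Hexokinase traps glucose by phosphorylating it. Hk1, the housekeeping form, rose from 922, 732 and 773 CPM to 1302, 1071 and 1067 CPM, a log2 change of 0.50 ± 0.12 (adjusted p = 0.024). Hk2, the inducible form, had nearly the same change at 0.48 ± 0.15 but a wider spread: 289, 192 and 198 CPM in vehicle and 332, 316 and 303 CPM in mitochondria libraries (adjusted p = 0.066). The groups did not overlap for Hk2, and the gap between them was small next to the distance of vehicle replicate 1 from the other vehicle libraries.

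Glucose-6-phosphate isomerase, encoded by Gpi1 (ENSMUSG00000036427, chr7:34201330-34230336), makes the fructose phosphate on which the next enzyme acts. Gpi1 stood at 1622, 1323 and 1288 CPM in vehicle and at 2595, 2251 and 2330 CPM in mitochondria libraries. Its log2 change of 0.76 ± 0.11 had the smallest adjusted p of the members (0.0055). It was the only member called in each of the 16 alternative analyses, with log2 changes from 0.67 to 0.87.

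Phosphofructokinase, the main control point of glycolysis, is assembled from liver (Pfkl), muscle (Pfkm) and platelet (Pfkp) subunits. Pfkp rose from 427, 322 and 307 CPM to 606, 558 and 560 CPM, by 0.71 ± 0.13 (adjusted p = 0.012). Pfkm rose less, from 65.0, 66.3 and 67.9 CPM to 91.5, 81.1 and 81.5 CPM, by 0.35 ± 0.09 (adjusted p = 0.036). Pfkl did not pass: it stood at 692 ± 11.3 CPM in vehicle and 746 ± 97.2 CPM in mitochondria libraries, where replicate 1 at 856 CPM was apart from the other libraries at 672 and 711 CPM (adjusted p = 0.51).

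Aldolase cleaves the sugar bisphosphate into 2 trioses. Aldoa, the main form here, stood at 2006, 1947 and 1872 CPM in vehicle and at 2580, 2172 and 2285 CPM in mitochondria libraries. Its groups did not overlap, but its log2 change of 0.27 ± 0.08 fell short of the threshold (adjusted p = 0.062). Aldoc, a minor form best known from brain, rose from 60.9, 62.1 and 64.5 CPM to 85.9, 81.0 and 75.8 CPM, by 0.37 ± 0.09 (adjusted p = 0.029). The adjacent second row named Aldoa held under 1 CPM in every library (0.44 ± 0.30 and 0.44 ± 0.15 CPM) and had a log2 change of -0.01 ± 0.69. Tpi1, triose phosphate isomerase, which interconverts those trioses, rose from 2279, 2188 and 2143 CPM to 3267, 2630 and 2743 CPM, by 0.39 ± 0.09 (adjusted p = 0.028).

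The bifunctional Pfkfb enzymes make and degrade the sugar bisphosphate that activates phosphofructokinase. Pfkfb3, the form with a strong kinase bias, rose from 405, 365 and 382 CPM to 481, 474 and 452 CPM, by 0.29 ± 0.08 (adjusted p = 0.043). Pfkfb2, the heart form, stood at 14.2, 12.2 and 16.8 CPM in vehicle and at 10.3, 10.2 and 10.6 CPM in mitochondria libraries. All of its mitochondria libraries were lower, with a log2 change of -0.48 ± 0.15 that missed the edgeR threshold (adjusted p = 0.066) and passed in DESeq2 (adjusted p = 0.030). Pfkfb1 and Pfkfb4 were rare, at 1.87 ± 0.23 and 4.68 ± 1.20 CPM in vehicle, and neither passed (log2 changes of -0.20 ± 0.27 and -0.21 ± 0.23). Tigar, a phosphatase that removes the same activator, was level at 12.8 ± 1.18 and 13.8 ± 0.17 CPM (adjusted p = 0.64).

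**Figure D2:**
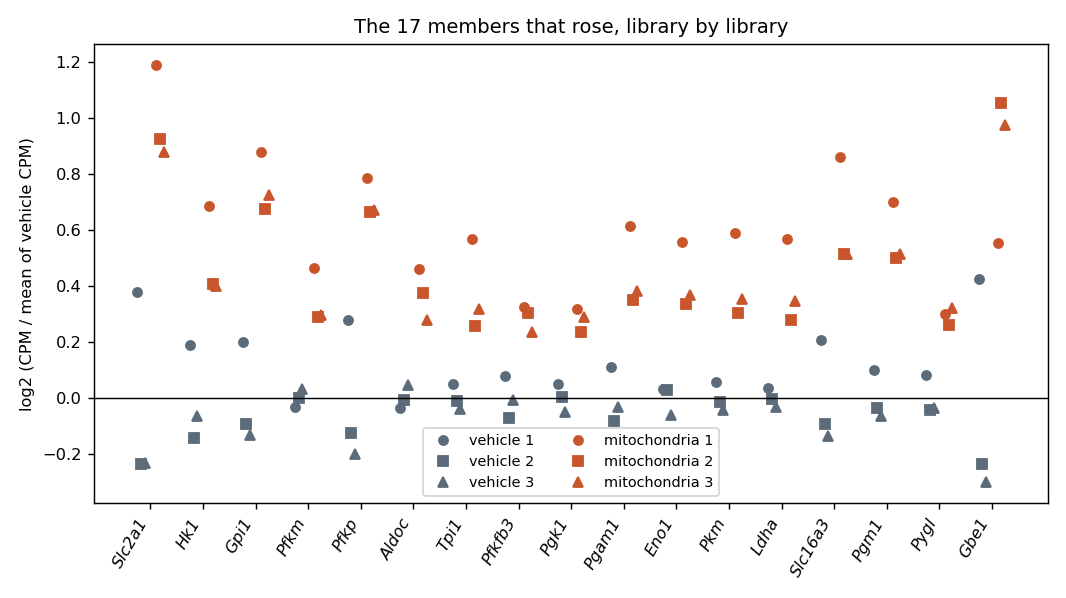
Level of each of the 17 members that rose, in every library, as log2 of CPM over the mean of the 3 vehicle libraries (y axis); grey points are vehicle, orange points mitochondria, and the marker shape gives the replicate. Every orange point lies above every grey point of its gene; vehicle replicate 1 is the highest vehicle library in 15 of 17 genes and mitochondria replicate 1 the highest mitochondria library in 15 of 17.

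In lower glycolysis, where ATP is made, the main form of each enzyme after Gapdh rose. Pgk1, phosphoglycerate kinase, is X-linked (chrX:106187100-106203699) and went from 2773, 2686 and 2590 CPM to 3341, 3155 and 3277 CPM. Its change of 0.28 ± 0.07 was the smallest among the members that rose (adjusted p = 0.028). Pgam1, phosphoglycerate mutase, went from 1685, 1474 and 1525 CPM to 2389, 1991 and 2033 CPM, by 0.45 ± 0.10 (adjusted p = 0.018). Eno1, the ubiquitous enolase, went from 3468, 3463 and 3258 CPM to 5002, 4281 and 4386 CPM, by 0.42 ± 0.08 (adjusted p = 0.014). Pkm, pyruvate kinase, which releases pyruvate and ATP, went from 7079, 6747 and 6612 CPM to 10260, 8404 and 8705 CPM, by 0.42 ± 0.09 (adjusted p = 0.018).

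The tissue-restricted forms of the same steps were rare and did not pass. Pgam2, the muscle mutase, was at 2.44 ± 0.48 and 2.46 ± 0.55 CPM (adjusted p = 0.99). Eno3, the muscle enolase, was at 6.51 ± 1.28 and 7.08 ± 1.68 CPM (adjusted p = 0.77). Eno2, the neuronal enolase, was at 13.6 ± 0.996 and 11.7 ± 1.56 CPM, a log2 change of -0.22 ± 0.14 (adjusted p = 0.35).

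Gapdh, glyceraldehyde-3-phosphate dehydrogenase, was the exception among the main forms. Its row stood at 562, 773 and 580 CPM in vehicle and at 1077, 600 and 840 CPM in mitochondria libraries, with overlapping groups and a change of 0.39 ± 0.21 (adjusted p = 0.22). The genome carries many near-identical processed copies of Gapdh, and the table lists 94 rows at least 95% identical to it over at least 300 bases, 92 of them with counts. These copies held 92.4% of the summed Gapdh-like CPM in vehicle and 92.7% in mitochondria libraries, and the Gapdh row itself only 7.62% and 7.31%. Gm7336 alone averaged 1231 CPM over the 6 libraries and is 99.8% identical to Gapdh.

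With the counts of all copies added to the parent gene, an analysis chosen after seeing the data, the groups came apart. The Gapdh sum stood at 8811, 8335 and 7983 CPM in vehicle and at 12790, 10610 and 11020 CPM in mitochondria libraries, with no overlap. The mean went from 8377 ± 416 to 11470 ± 1156 CPM (SD, n = 3 each), a log2 change of 0.46 ± 0.09 (adjusted p = 0.013). In that analysis 18 members rose, the earlier 17 and Gapdh, where 6.23% of all rows rose. Which locus each such read came from cannot be told from the table.

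For the other members with near copies, the copies held far smaller shares of the sum. They held 11.01% of the vehicle sum for Eno1, chiefly Eno1b at 263 CPM and Gm4735 at 220 CPM on average, 4.05% for Pgam1, 3.79% for Pgk1 and 1.04% for Pkm. For Tpi1, Ldha, Ldhb and Gpi1 they held 0.22% to 0.50%. None of these 8 members changed its call when copies were added. Eno1b, counted by itself, rose by 0.40 (adjusted p = 0.016), close to the 0.42 of Eno1.

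**Figure D3:**
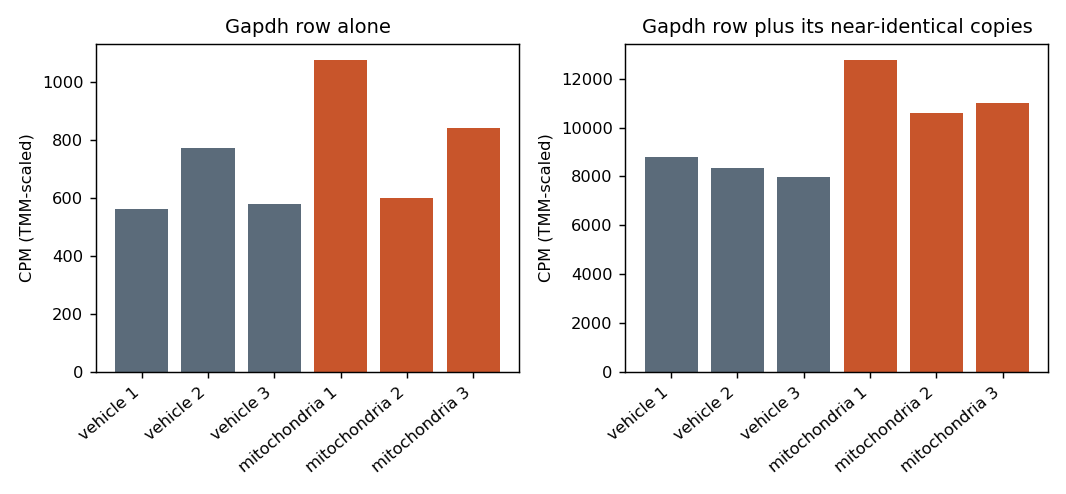
CPM per library (y axis, from 0) for the Gapdh row alone on the left and for Gapdh plus its 94 near-identical rows on the right; bars are single libraries. The row alone overlaps between groups (562 to 773 against 600 to 1077 CPM), while the sums do not (7983 to 8811 against 10610 to 12790 CPM).

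Lactate is made by lactate dehydrogenase. Ldha, the muscle-type subunit that favours pyruvate reduction, rose from 5970, 5812 and 5700 CPM to 8637, 7063 and 7410 CPM, by 0.40 ± 0.09 (adjusted p = 0.019). Ldhb, the heart-type subunit, was at 36.6 ± 4.43 and 34.3 ± 1.75 CPM with overlapping groups (adjusted p = 0.63).

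Of the transporters that carry lactate across the membrane, 1 of 2 passed. Slc16a3 (MCT4), the exporter of strongly glycolytic cells, rose from 649, 528 and 512 CPM to 1022, 804 and 803 CPM, by 0.64 ± 0.13 (adjusted p = 0.017). Slc16a1 (MCT1), a carrier of higher affinity, stood at 399, 403 and 428 CPM in vehicle and at 335, 386 and 382 CPM in mitochondria libraries. All of its mitochondria libraries were lower, but the change of -0.16 ± 0.09 did not pass (adjusted p = 0.25). With an offset for GC content its estimate turned to 0.16.

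MCT proteins reach the membrane with an immunoglobulin-family partner, and 2 such partners moved in opposite directions. Bsg (basigin), the partner of MCT1 and MCT4, rose from 3569, 2961 and 2928 CPM to 6176, 5031 and 5172 CPM, by 0.79 ± 0.11 (adjusted p = 0.0053). Emb (embigin) fell from 223, 247 and 249 CPM to 130, 196 and 165 CPM, with a log2 change of -0.55 ± 0.14 (adjusted p = 0.034).

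In glycogen metabolism, Pgm1 (phosphoglucomutase), which links glucose-6-phosphate to the glycogen branch, rose from 626, 570 and 559 CPM to 951, 827 and 835 CPM, by 0.57 ± 0.09 (adjusted p = 0.0074). Pgm2, a related mutase of minor abundance, was at 32.1 ± 3.81 and 36.5 ± 3.17 CPM (adjusted p = 0.35). Gys1, the glycogen synthase of tissues other than liver, stood at 543, 460 and 483 CPM in vehicle and at 675, 602 and 576 CPM in mitochondria libraries. Its groups did not overlap, and its change of 0.32 ± 0.10 missed the threshold (adjusted p = 0.060).

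Gbe1 (ENSMUSG00000022707, chr16:70313949-70569716), the branching enzyme, stood at 350, 221 and 212 CPM in vehicle and at 383, 542 and 513 CPM in mitochondria libraries. Vehicle replicate 1 and mitochondria replicate 1 lay close together, and the change of 0.88 ± 0.21 passed (adjusted p = 0.026). Pygl, the liver-type glycogen phosphorylase that releases glucose phosphate from the store, rose from 146, 134 and 135 CPM to 170, 165 and 173 CPM, by 0.29 ± 0.08 (adjusted p = 0.045). Pygb, the brain-type phosphorylase, was at 71.3 ± 12.6 and 69.2 ± 4.98 CPM (adjusted p = 0.88).

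For 8 enzyme or transporter families the share of 1 member in the family's summed FPKM was compared, so that a difference within a family could be seen apart from its level. The exact two-sided permutation test over 20 assignments cannot give less than 0.10 with 3 against 3, so no share could pass 0.05. In 6 families the groups did not overlap (exact p = 0.10 each, 0.133 adjusted over the 8). The difference in means was widest for Slc16a3, which made up 57.5%, 52.1% and 49.9% of Slc16a1 plus Slc16a3 in vehicle and 71.7%, 63.4% and 63.7% in mitochondria libraries. These 2 genes differ in GC content (56.6% for Slc16a3 and 42.9% for Slc16a1). Shares were not computed with the GC offset, under which the Slc16a1 estimate turned to 0.16, so how far this difference depends on GC content was not tested. Pfkp made up 20.7%, 16.4% and 15.4% of the phosphofructokinase subunits in vehicle and 22.5%, 25.0% and 24.2% in mitochondria libraries.

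The other differences in share were smaller. Pfkfb3 was 93.8% ± 0.99 and 95.9% ± 0.26 of the Pfkfb forms, Eno1 was 98.97% ± 0.09 and 99.24% ± 0.08 of the enolases, and Ldha was 98.69% ± 0.16 and 99.07% ± 0.09 of lactate dehydrogenase. Slc2a3 was 1.76% ± 0.29 and 1.28% ± 0.14 of the glucose transporters, the lower share being in mitochondria libraries. In this family vehicle replicate 3 and mitochondria replicate 3 were level, at 1.433% and 1.431%. The Hk2 share was 28.4% in both groups (± 2.25 and ± 1.499, exact p = 1.0). The Pygl share was 57.7% ± 5.63 and 63.1% ± 1.36 of the phosphorylases, with overlap (exact p = 0.30, 0.343 adjusted).

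**Figure D4:**
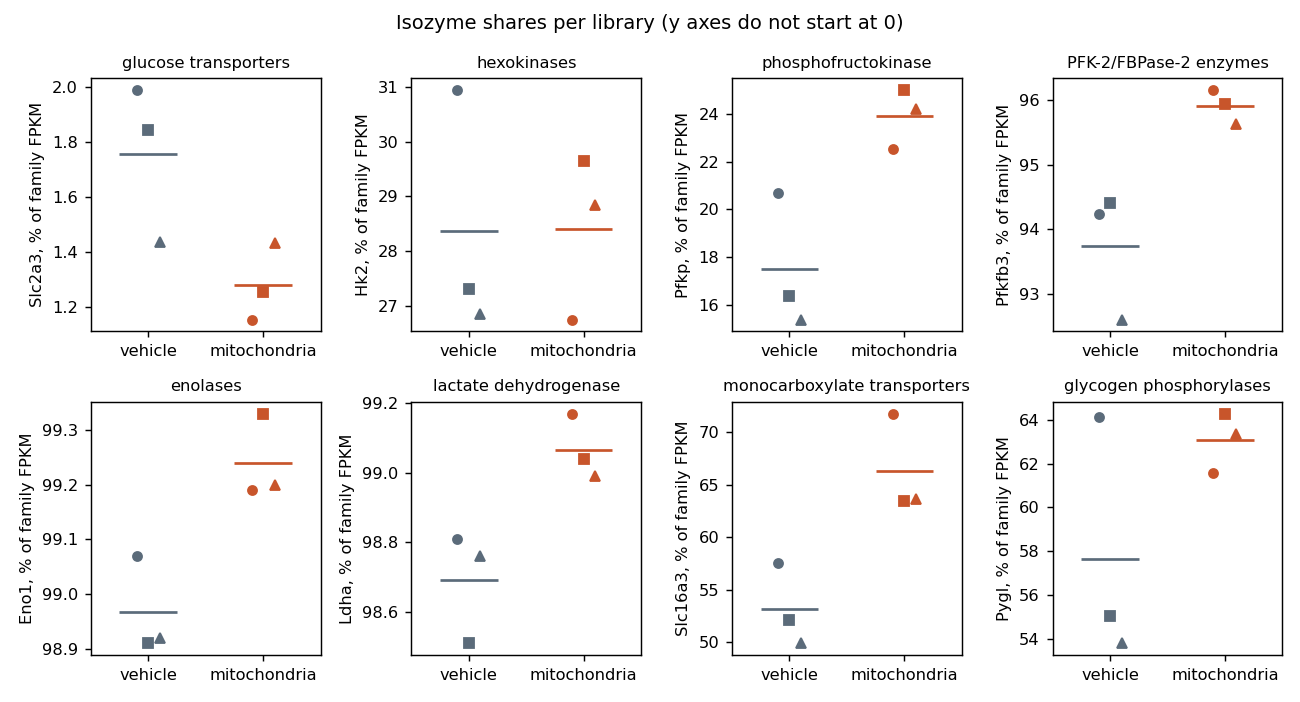
Share of 1 isozyme in the summed FPKM of its family (y axis, percent, not starting at 0) in each library of the 2 groups; lines are group means and marker shapes give the replicate. The mean share was 53.2% in vehicle and 66.3% in mitochondria libraries for Slc16a3, 17.5% and 23.9% for Pfkp, and 28.4% in both for Hk2. No share could pass 0.05 with 3 libraries a group, and none was corrected for GC content.

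Beyond the 35 genes, 69 other genes of the same pathways were listed, of which 58 were tested: 8 rose (6.36% of all tested genes did), 6 fell (8.46% of all did), and their median log2 change was 0.08. The share that fell is near that of all genes. Among sugar transporters and their regulators, Slc2a8 (GLUT8) rose by 0.70 ± 0.16 (adjusted p = 0.022), and Txnip, which lowers glucose uptake, rose by 0.31 ± 0.07 (adjusted p = 0.026). Slc2a13, a myo-inositol carrier of this family, went from 7.60, 10.6 and 12.5 CPM to 2.79, 3.84 and 4.42 CPM, with a log2 change of -1.47 ± 0.24 (adjusted p = 0.0091). Among glycolytic side enzymes, Bpgm, which makes a bisphosphoglycerate side product, rose by 0.51 ± 0.11 (adjusted p = 0.022). Pgp, a phosphatase that clears side products of glycolytic enzymes, rose by 0.50 ± 0.12 (adjusted p = 0.027).

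At the branch from pyruvate to mitochondria, Pdp2, a phosphatase that activates pyruvate dehydrogenase, fell (log2 change -1.01 ± 0.20, adjusted p = 0.015). Its level was low, at 5.7, 6.3 and 6.6 CPM in vehicle and 3.3, 2.5 and 3.4 CPM in mitochondria libraries. The more abundant form, Pdp1, at 18.5 CPM in vehicle, had overlapping groups and did not pass (-0.47 ± 0.18, adjusted p = 0.11). Pcx, pyruvate carboxylase, fell (-0.51 ± 0.11, adjusted p = 0.020). Pdk1, a kinase that inhibits pyruvate dehydrogenase, was abundant at 338 CPM in vehicle and did not pass (0.11 ± 0.08, adjusted p = 0.40).

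Of 22 other glycogen genes tested, 3 rose and 2 fell, beside 6.36% and 8.46% of all tested genes; with so few genes called, the counts say little about the list. Epm2a (laforin, a glycogen phosphatase) rose by 0.50 ± 0.10 (adjusted p = 0.018), Stbd1 (a glycogen-binding adaptor) by 0.39 ± 0.11 (adjusted p = 0.045) and Ppp1r3c (a glycogen-targeting subunit of protein phosphatase) by 0.33 ± 0.09 (adjusted p = 0.0496). Gyg, the primer protein on which a glycogen particle starts, stood at 33.9, 38.6 and 38.2 CPM in vehicle and fell to 24.2, 23.8 and 26.4 CPM, with a log2 change of -0.57 ± 0.11 (adjusted p = 0.014). Phkb, a regulatory subunit of the kinase that switches phosphorylase on, stood at 32.4, 38.8 and 38.2 CPM and fell to 14.2, 24.0 and 20.7 CPM (-0.89 ± 0.19, adjusted p = 0.019).

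Spread between libraries differed among the 17 members that rose, and the ranks given here are among those 17 only. Some members that did not pass were more spread, such as Slc2a3 in vehicle and Gapdh in mitochondria libraries. In vehicle the coefficient of variation was 25.9% for Slc2a1, 29.6% for Gbe1 and 18.6% for Pfkp, with replicate 1 high in each, and 2.3% for Ldha, 2.2% for Pfkm and 3.5% for Eno1 and Pkm. In mitochondria libraries Gbe1 again had the widest spread at 17.7%, followed by Slc16a3 at 14.4% and Slc2a1 at 12.0%. Ldha at 10.7% and Pkm at 10.9% were more spread there than in vehicle, with replicate 1 the highest, and Pfkp at 4.7% less. Over all member rows, the median deviation from the vehicle mean was 0.05, -0.04 and -0.04 in vehicle replicates 1 to 3. It was 0.43, 0.26 and 0.28 in mitochondria replicates 1 to 3 (log2 of CPM plus 1).

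Calls depended on single libraries more than directions did. Without vehicle replicate 2, or without vehicle replicate 3, only Gpi1 was called, where 0.727% and 0.736% of all genes rose. Without mitochondria replicate 3, 8 members rose (Slc2a1, Gpi1, Pfkp, Pgam1, Eno1, Pkm, Slc16a3 and Pgm1) and 2.21% of all genes did. Without mitochondria replicate 2, 12 rose, Pfkm, Aldoc, Pfkfb3, Pygl and Gbe1 being lost, where 4.87% of all genes rose. Without vehicle replicate 1, which lay nearest to the mitochondria libraries, 17 rose where 5.4% of all genes did: 14 of the earlier 17, with Slc2a3, Hk2 and Gys1 in place of Pfkm, Aldoc and Pygl. With no filter on low counts 5 rose (Slc2a1, Gpi1, Pfkp, Eno1 and Pgm1), against 1.37% of 26044 genes. On FPKM with limma, 8 rose with a pseudocount of 1 (5.22% of all genes) and 8 with 0.1 (5.07%). Those 8 were Slc2a1, Hk1, Gpi1, Pfkp, Aldoc, Slc16a3, Pgm1 and Gbe1. The estimates of the 17 members stayed above 0 in all 16 alternatives. Of the 14 other pathway genes that rose or fell, Bsg passed with any 1 library left out. Without vehicle replicate 2, 2 of the 14 passed (Bsg and Slc2a13), without vehicle replicate 3 only Bsg, and without mitochondria replicate 3, 4 did. No estimate of the 14 changed sign in any alternative.

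**Figure D5:**
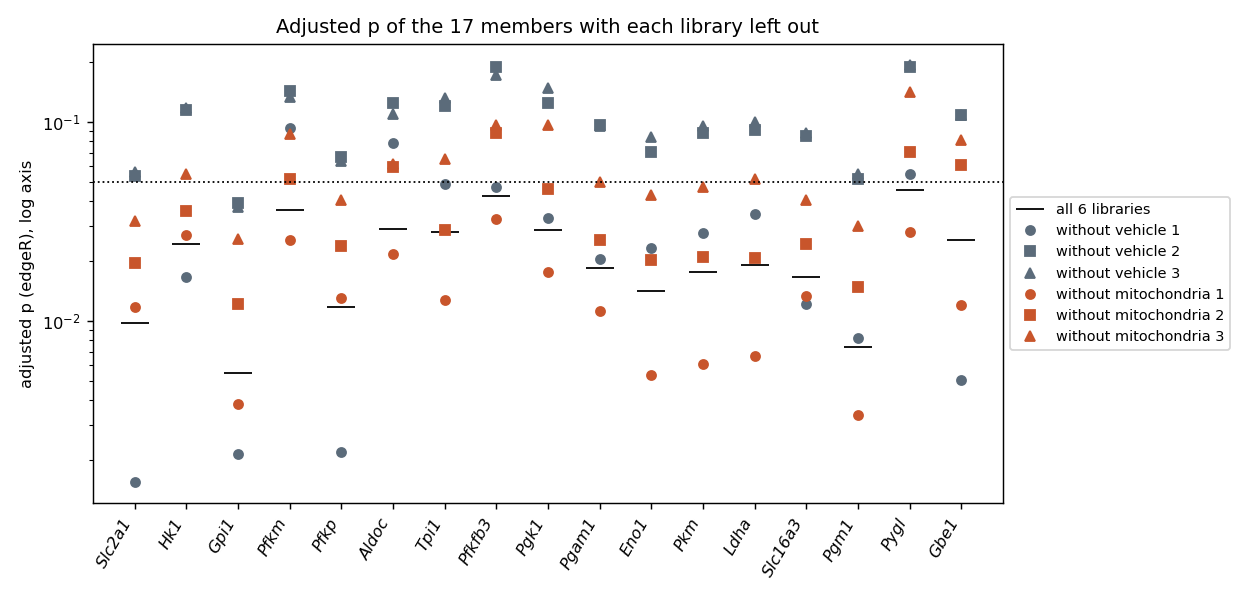
Adjusted p from edgeR (y axis, log scale) of the 17 members that rose, with all 6 libraries (bars) and with each library left out (points); the dotted line is 0.05. Only Gpi1 stays under the line in every case, and leaving out vehicle replicate 2 or 3 lifts the other 16 above it.

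Total counts were 63547854 to 66293786 per library, and each sequenced fragment appears to be worth about 4 counts. Chondrocyte markers were present in every library, with Col2a1 at 1115 ± 90.5 and 1000 ± 136 CPM. The sum of the 10 markers was 1884 to 2262 CPM in vehicle and 1540 to 1762 CPM in mitochondria libraries, with Acan and Sox9 higher and Col11a1 and Hapln1 lower. Col11a1, the most abundant of the 10 after Col2a1, went from 614 ± 91.8 to 320 ± 58.3 CPM and weighs heavily in that sum. Of the 10 estimates 4 were above 0, and 6 markers were not called. The 6 erythroid markers summed to 126 to 164 CPM in vehicle and 77.0 to 90.4 CPM in mitochondria libraries, with 4 lower. The 7 macrophage markers summed to 35.8 to 43.8 and 48.1 to 54.6 CPM. None was called by edgeR, 2 had an unadjusted p below 0.05 by edgeR and 2 were called by DESeq2. The 2 by edgeR went opposite ways: Cd14, the most abundant of the 7, from 24.2 ± 3.03 to 32.7 ± 3.01 CPM, and Ptprc from 1.28 ± 0.72 to 0.38 ± 0.09 CPM. Of the 7 estimates, 4 were above 0. The 5 synovial fibroblast markers summed to 1033 to 1160 and 976 to 1014 CPM (1 higher, 2 lower). Muscle and neural markers summed to at most 19.1 and 21.4 CPM and osteocyte markers to at most 1.45 CPM in any library, and no measured marker of any list was at 0 in all 6. The part of these cell type markers in the results above was not tested.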

How the data were processed

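Poly(A) RNA of 6 libraries (3 vehicle, 3 mitochondria) was sequenced as paired ends, per the labels. The authors deposited 1 table with FPKM and expected counts for each gene and library. The submitters' processing notes name HISAT2 2.0, StringTie 1.3.0, Bowtie 0.12.2 and build mm8 without roles; 90.1% of the identifiers found in GENCODE M21 have the same position on GRCm38, so coordinates are GRCm38. Low counts pile up at 4 and 8, so counts overstate the number of fragments. Whether counting used strand or split multi-mapped reads is not given in the sources used here.

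The members and lists were chosen with earlier results of these data known. Every member is accounted for, and of the other pathway lists the genes that passed are named. Counts were rounded and analysed with edgeR 4.0.16 in R 4.3.3 (TMM, filterByExpr with minimum count 10, group only, two-sided, checked on simulated counts). The SE is the absolute log2 change over the square root of F. Alternatives used DESeq2 1.42.0, RLE scaling, no filter, each library left out, a replicate block, counts divided by 4, a GC offset, limma 3.58.1 on log2(FPKM + 1) and log2(FPKM + 0.1), and near copies summed. Near copies were found by aligning transcripts (at least 95% identity over 300 bases). No protein sequence was used here.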

Additional observations from a re-analysis of the deposited data

How the results depend on the processing

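The median log2 change of the members stayed between 0.23 and 0.34 in every alternative. Members tested had a median GC content of 52.9%, against 49.7% for all tested genes. With the GC offset the members' median was 0.25 and 16 rose, where 1703 of 17290 genes did. Pfkm was lost there (0.21 ± 0.07, adjusted p = 0.060). The offset moved estimates both ways: from 0.42 to 0.25 for Eno1 and 0.50 to 0.34 for Hk1, but from 0.71 to 0.76 for Pfkp. The number of members that rose was 5 with no filter on low counts, 8 with limma on FPKM at either pseudocount, and 1 to 17 with 1 library left out. The number that fell was 1 with DESeq2, where 2175 of 17290 genes fell, and 0 in the others. In those others the number of all genes that fell ranged from 310 of 17938 (without vehicle replicate 3) to 1735 of 17290 (limma, pseudocount 1). The cause of these differences was not tested. Same-number libraries correlated at 0.084, 0.027 and 0.024 once group means were removed, and libraries of different number at -0.068 to 0.057. Such low values cannot settle whether the numbers pair the samples. With the replicate block 14 members rose, where 5.19% of all genes did. Of these, 12 were among the 17 reported; Pfkm, Aldoc, Pfkfb3, Pygl and Gbe1 were lost and Hk2 and Gys1 gained.

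Estimates that changed sign were all of members that did not pass. With the GC offset, and with it and the replicate block, the log2 change was -0.13 and -0.14 for Slc2a6, -0.067 and -0.068 for Pfkl, -0.14 and -0.17 for Pgam2, -0.021 and -0.020 for Eno3, and 0.16 and 0.16 for Slc16a1. On FPKM with pseudocounts 1 and 0.1 it was -0.015 and -0.026 for Slc2a6 and -0.047 and -0.065 for Pgam2, which was -0.004 with counts per fragment. The second Aldoa row came to 0.18 with the replicate block and 0.072 with pseudocount 0.1. With 1 library left out the ranges were -0.047 to 0.23 for Slc2a6, -0.002 to 0.18 for Pfkl, -0.39 to 0.65 for the second Aldoa row, -0.16 to 0.17 for Pgam2, -0.017 to 0.30 for Eno3, -0.15 to 0.007 for Ldhb and -0.18 to 0.055 for Pygb. The difference in the Hk2 share ranged from -0.71 to 1.34 percentage points.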
